A study of Mus musculus with 12 samples.

Results

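The genes described here are 10 that encode proteins of the sperm acrosome or of sperm-egg fusion: Acr, Acrbp, Spam1, Spaca3, Zpbp, Zpbp2, Acrv1, Spaca1, Izumo1 and Dpy19l2. They were chosen by name, and they are 10 of the 21938 protein-coding genes of the GENCODE M21 annotation outside the mitochondrial genome. Nascent transcription was measured by leChRO-seq, a run-on assay on isolated chromatin in which engaged RNA polymerase adds biotinylated nucleotides to the RNA it is making, and that RNA is then captured and sequenced. Wild-type (WT) spermatocytes of adult mice were enriched by STAPUT, a sedimentation method that separates cells by size and density, for 3 substages of prophase I. The groups were LZ (leptonema and zygonema together), P (pachynema) and D (diplonema), with 4 libraries each, no treatment and no altered allele. The authors merged the libraries of a substage and ran dREG, a machine-learning tool that finds places with the run-on signature of transcription initiation and gives each peak a score. Peaks numbered 71107 in the LZ list, 68352 in the P list and 38603 in the D list. There is 1 list per substage, so no value has a replicate spread and no test between substages was possible. No read counts are in the lists, and the depth behind each merged list was not worked out here. A peak carries no strand, and the absence of a call does not show the absence of transcription.

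The acrosome is a secretory vesicle that forms from the Golgi apparatus in round spermatids and caps the sperm nucleus. It holds enzymes and binding proteins that act at the zona pellucida, the coat of the egg, and its release exposes the surface on which sperm and egg membranes fuse. The acrosome is built and used after meiosis, whereas the cells enriched here are in the prophase of the first meiotic division. The testes were those of adults, which also hold haploid spermatids. The study followed transcription through the substages of prophase I, and the comparison made here is in which of them initiation was first called at these genes.

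A promoter peak of all 10 genes was called in LZ, the earliest substage sampled, and again in P and in D. A promoter peak is a peak whose nearest edge was under 1000 bp from any GENCODE M21 transcription start site (TSS) of the gene. The substage in which initiation was first called was therefore LZ for 10 of 10 genes, and no gene was first called in P or D. Because no earlier cell was sampled, the lists do not say whether initiation at these genes began before leptonema. Among all protein-coding genes a promoter peak was called for 60.2% in LZ (Wilson 95% interval 59.5 to 60.8%, for the counting of genes only), 60.5% in P (59.8 to 61.1%) and 51.6% in D (51 to 52.3%). It was called in all 3 substages for 49.5% of them, and the background for a first call was 60.2% in LZ, 3.53% in P and 0.433% in D, with 35.9% never called.

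For each gene a promoter peak lay on an annotated start in every list, while further promoter peaks of most genes lay beside it. A TSS was inside a peak in each of the 3 substages for 10 of 10 genes, against 45.7% of all protein-coding genes (56.5%, 56.8% and 47.9% in LZ, P and D taken singly). For 9 of 10 genes the strongest promoter peak covered a TSS in every substage, which was also the case for 73.6% of the 10851 genes called in all 3. The exception was Zpbp in LZ. For each gene the peaks over the TSS overlapped in all 3 lists, by between 420 bp (Izumo1) and 780 bp (Spaca3). The peak centres that dREG gave moved between lists by 10 bp for Acr, the smallest range, and by 140 bp for Izumo1, the largest.

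**Figure D1:**
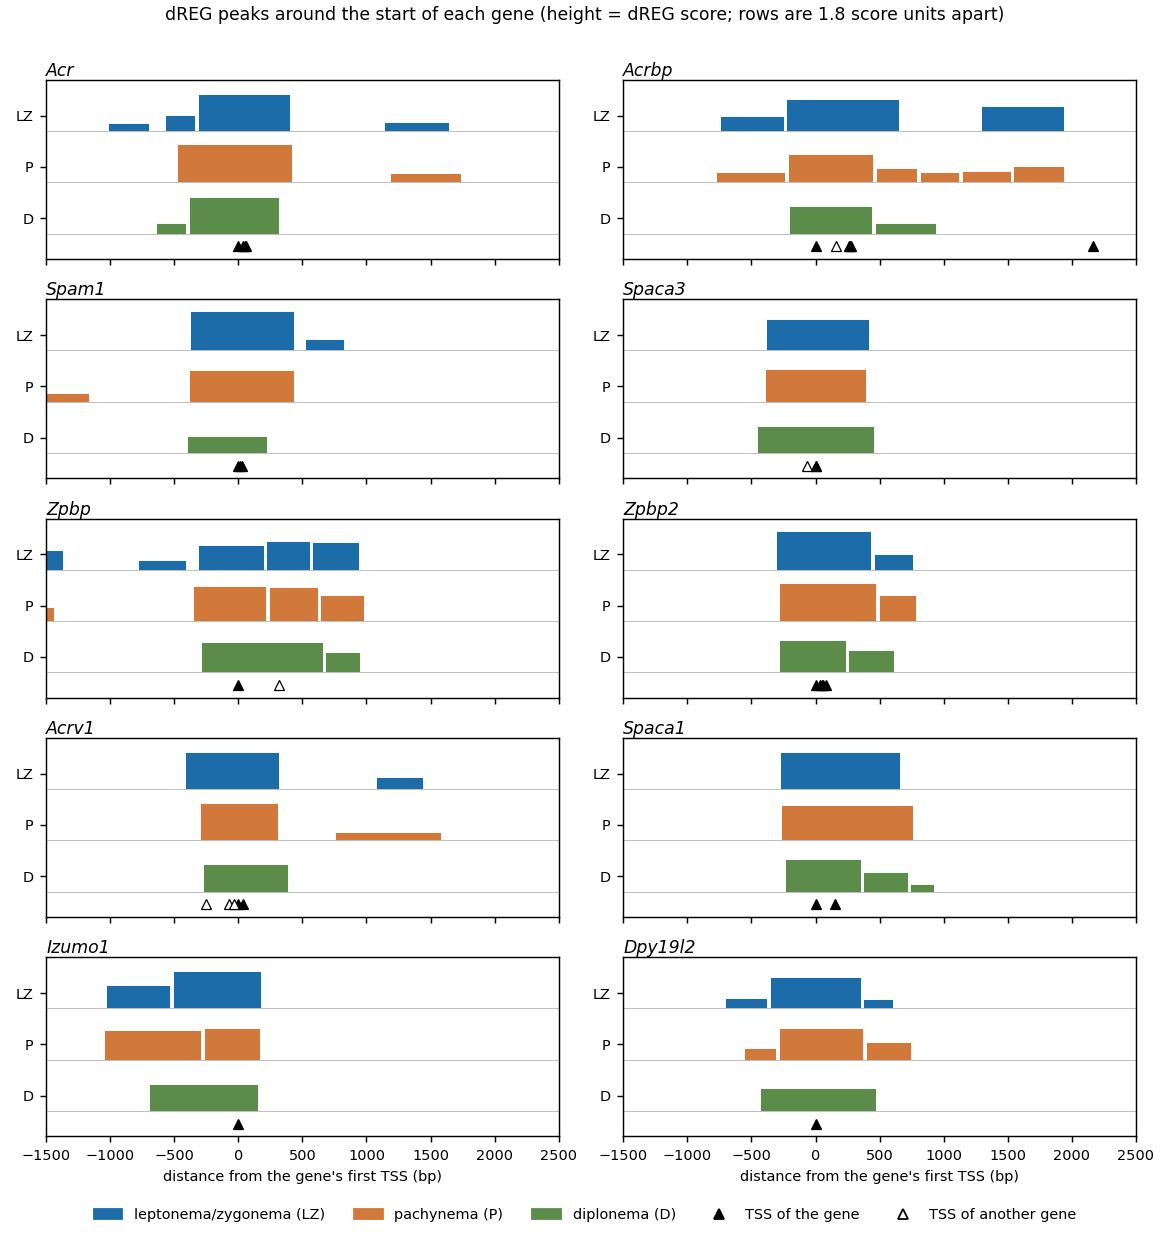
dREG peaks around the start of each of the 10 genes, in 1 panel per gene. The x axis is the distance in bp from the gene's first TSS in the direction of transcription, each row is a substage (LZ, leptonema/zygonema; P, pachynema; D, diplonema), the width of a block is the extent of a peak and its height the dREG score, and triangles mark TSSs of the gene (filled) or of another gene (open). In every panel a peak lies over the gene's start in all 3 rows.

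The cell type of the samples was checked on marker genes by the same promoter rule. Of 7 spermatocyte markers, 6 had a promoter peak in LZ and 7 in each of the later substages. The median score of the spermatocyte markers called was 1.12 in LZ, 1.16 in P and 0.871 in D. Sycp3, a protein of the synaptonemal complex, had its strongest promoter peak at a score of 1.03 in LZ, 1.205 in P and 1.23 in D. Dmc1 went the other way, with scores of 1.106, 0.768 and 0.507. Pou5f2 was the marker not called in LZ. Of 5 Leydig markers, 1 was called, Cyp11a1 in P only, with a score of 0.414. None of the 3 immune and endothelial markers was called. Of 4 Sertoli markers, 2 were called in LZ and 3 in each of P and D, and of 4 spermatogonial markers 3, 3 and 2 were called in this order. The median score of those called was 0.655, 0.652 and 0.482 for Sertoli and 0.845, 0.857 and 0.514 for spermatogonial markers. The highest in LZ were Gata4 (0.925) and Kit (1.037). Among 5 spermatid markers, a list that includes Acrv1, 4 were called in each substage. Tnp1, a transition protein of spermatid chromatin, had scores of 0.981, 0.956 and 1.023, and Tnp2 had no promoter peak in any list. Prm1 and Prm2, the protamine genes, shared their strongest peak, with a score of 0.676, 0.561 and 0.747, since annotated starts of both lie near it. Spermatids transcribe acrosome genes, and the fractions were enriched but not pure: by the study's account contaminating cells were for the most part elongated spermatids, and germ cells from before or after the named substage were possible too. The part of these cells in the calls at the 10 genes was not tested.

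Scores are not scaled between substages, so the genes were also ranked. The rank is the percentage of the 10851 genes called in all 3 lists whose strongest promoter peak had a lower score in the same list. In LZ 6 genes had ranks above 90: Spam1 (97.6), Zpbp2 (96.2), Acr (92.3), Spaca1 (92.1), Acrv1 (91.6) and Izumo1 (90.9). Acrbp (53.7), Spaca3 (53.4) and Dpy19l2 (50.9) were near the middle of all genes, and Zpbp (36.9) was below it. The median rank of the 10 genes was 91.3 in LZ, 69.7 in P and 65.8 in D. Taken gene by gene the change was smaller: the median change in rank from LZ to D was -5.19 percentage points, against 1.11 over the 10851 genes. In scores, the median of the 10 was 1.313 against 1.048 for the 13203 genes called in LZ, 1.188 against 1.03 for 13272 genes in P, and 0.9765 against 0.8345 for 11328 genes in D. The score was above the median of all called genes for 9, 9 and 8 of the 10 genes in this order.

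The genes moved in opposite directions within that ranking. Rank was lower in D than in LZ for 6 of the 10 genes, against 47.8% of all genes called in all 3 substages. It was lower in P than in LZ also for 6 of 10, against 49.8% of those genes. Over all of them, the middle 80% of changes in rank from LZ to D ran from -35.5 to 33.6 percentage points. Only Spam1, whose rank dropped by 73.8 points, and Zpbp, which rose by 40.6 points, lay outside that range. The ranks of Zpbp are also those of Spata48, whose start lies close by. The rank of Zpbp in LZ comes from a peak over the Spata48 TSS, and in D from a peak over both starts. The other 8 genes lay between -27.6 points (Izumo1) and 12.8 points (Acrbp). Counts, ranks and scores over the 10 genes share 1 pooled list per substage and carry no test.

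**Figure D2:**
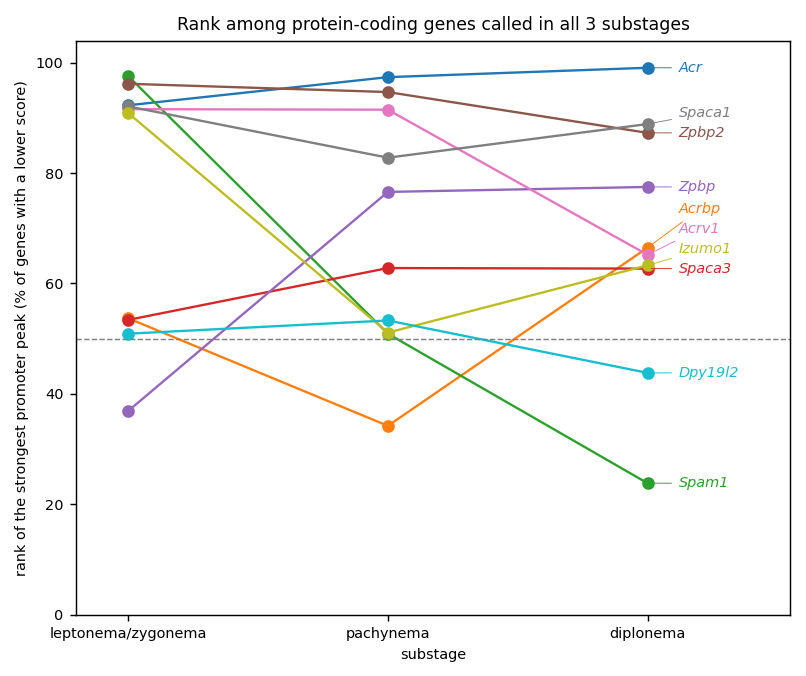
Rank of the strongest promoter peak of each of the 10 genes in each substage. The y axis gives the percentage of the 10851 protein-coding genes called in all 3 substages with a lower dREG score in that list, each line is a gene, and the dashed line marks the middle of all genes. Spam1 runs from 97.6 to 23.8 and Zpbp from 36.9 to 77.5, the same ranks as its neighbour Spata48, while Acr stays above 92 throughout.

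Acr and Acrbp encode parts of the proteolytic content of the acrosome. Acr, for acrosin, a serine protease stored as the inactive precursor proacrosin, lies on chromosome 15 from 89568326 to 89574585 on the plus strand of mm10, the build of all coordinates given here. Its TSSs were covered by a peak with a dREG score of 1.32 in LZ (89568011 to 89568730), 1.353 in P (89567851 to 89568740) and 1.296 in D (89567941 to 89568640). These were the highest scores of the 10 genes in P and in D, where the rank of Acr was 97.4 and 99.1. Weaker promoter peaks lay upstream in LZ, with scores of 0.298 and 0.573, and in D, with a score of 0.373.

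Acrbp encodes the acrosin-binding protein, which holds proacrosin in the forming vesicle. It lies on chromosome 6 from 125049689 to 125063267 on the plus strand. The peak over its start had a score of 1.125 in LZ (125049461 to 125050340), 0.987 in P (125049471 to 125050140) and 0.981 in D (125049481 to 125050130). Its rank was 53.7, 34.2 and 66.5 in this order, so it was lowest in P. The number of promoter peaks was 3 in LZ, 6 in P and 2 in D, and several of those in P adjoin in a chain from 125049471 to 125051630. The higher number in P rested on weak peaks: with scores of at least 0.5 it was 3 in LZ and 3 in P, with p-values of at most 0.01 also 3 and 3, and with lists of equal length 3 and 2. Inside the peak over the start also lies the TSS of 4930557K07Rik, an antisense transcript on the minus strand that begins 96 bp from an Acrbp TSS. Which of the pair was initiated cannot be told from an unstranded peak.

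Spam1 encodes a hyaluronidase of the sperm surface and acrosomal membrane, known as PH-20, which digests the matrix around the egg's cumulus cells. It lies on chromosome 6 from 24791188 to 24801048 on the plus strand. The peak over its start had a score of 1.381 in LZ (24790811 to 24791620), 1.101 in P (24790801 to 24791620) and 0.602 in D (24790791 to 24791410). It was the highest score of the 10 genes in LZ and the lowest in D, and the rank was 97.6, 50.9 and 23.8. Spam1 had the largest drop in rank from LZ to D of the 10 genes, and its place among all genes was worked out for it alone. Of the genes called in all 3 substages, at whatever rank in LZ, 0.756% had a lower change. The left edge of the peak stayed within 20 bp, its right edge lay at 24791620 in LZ and P and at 24791410 in D, and its centre moved over a range of 90 bp. No other gene has a TSS under 1000 bp from a TSS of Spam1.

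Spaca3 encodes a lysozyme-like protein of the acrosome. It lies on chromosome 11 from 80858365 to 80867814 on the plus strand. A single promoter peak was called in each list, with a score of 1.123 in LZ (80857981 to 80858780), 1.158 in P (80857971 to 80858760) and 0.954 in D (80857911 to 80858820). The rank stayed between 53.4 and 62.8. The antisense gene 4930507D10Rik begins 65 bp from a TSS of Spaca3 on the minus strand, and its TSS was inside the same peak in every list.

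Zpbp and Zpbp2 encode related zona pellucida binding proteins of the acrosomal matrix. Zpbp, at 183 kb the longest of the 10 genes, lies on chromosome 11 from 11279626 to 11462408 on the minus strand. The peak over its TSS had a score of 0.883 in LZ (11462211 to 11462720), 1.219 in P (11462191 to 11462760) and 1.058 in D (11461751 to 11462700). In LZ a separate peak 218 bp from the TSS scored higher, at 1.02 (11461851 to 11462190). That peak covered the TSS of Spata48, a coding gene of the plus strand whose start lies 314 bp inside Zpbp. With the strongest peak of either start counted, the rank of Zpbp was 36.9, 76.6 and 77.5. When only peaks at least as near to a TSS of Zpbp as to that of another gene were kept, Zpbp still had 2, 1 and 1 promoter peaks in the 3 lists. The peak kept in D (11461751 to 11462700) covered the TSSs of both genes, so its score cannot be assigned to Zpbp alone.

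Zpbp2 lies on chromosome 11 from 98551097 to 98558665 on the plus strand. Its start was covered by a peak with a score of 1.361 in LZ (98550791 to 98551530), 1.321 in P (98550811 to 98551570) and 1.134 in D (98550811 to 98551330). A second peak began 20 bp after it in each list, with scores of 0.572, 0.922 and 0.777. Its rank stayed high, at 96.2, 94.7 and 87.3, and no other gene has a TSS under 1000 bp away.

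Acrv1 and Spaca1 encode proteins attached to the acrosomal membranes. Acrv1, also known as SP-10, lies on chromosome 9 from 36693220 to 36698843 on the plus strand. Its start was covered by a peak with a score of 1.316 in LZ (36692801 to 36693540), 1.297 in P (36692921 to 36693530) and 0.972 in D (36692941 to 36693610). The rank was 91.6 and 91.5 in the earlier substages and 65.2 in D. The noncoding gene 1700027I24Rik, annotated as a bidirectional promoter lncRNA, begins 31 bp from the Acrv1 start on the minus strand, and Gm49367, a processed transcript, begins 251 bp away on the same strand. A second and weak promoter peak in P had a score of 0.283 (36693971 to 36694800). The overlapping peak in LZ scored 0.412 (36694291 to 36694660) and was not counted because it lay 1037 bp from the nearest TSS, past the 1000 bp limit, and no such peak was called in D.

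Spaca1, whose product is a membrane protein needed for the acrosome to take shape, lies on chromosome 4 from 34024874 to 34050191 on the minus strand. Its start was covered by a peak with a score of 1.319 in LZ (34049531 to 34050470), 1.245 in P (34049431 to 34050460) and 1.148 in D (34049841 to 34050430). In D 3 peaks were called, 1 over the start and the others downstream of it with scores of 0.674 and 0.267. Its rank was 92.1, 82.8 and 88.9.

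Izumo1 encodes the sperm protein that binds JUNO on the egg membrane and is required for fusion. It lies on chromosome 7 from 45621811 to 45628823 on the plus strand. The peak over its start had a score of 1.311 in LZ (45621301 to 45621990), 1.102 in P (45621541 to 45621980) and 0.959 in D (45621111 to 45621960). Its rank was 90.9, 51.1 and 63.3. A second promoter peak upstream scored 0.813 in LZ (45620781 to 45621280) and 1.032 in P (45620761 to 45621520). In D 1 peak spanned part of that upstream region as well as the start.

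Dpy19l2 encodes a protein of the inner nuclear membrane that anchors the acrosome to the nucleus, and men who lack it have round-headed sperm. It lies on chromosome 9 from 24557047 to 24696293 on the minus strand and spans 139 kb. The peak over its TSS had a score of 1.109 in LZ (24695941 to 24696650), 1.113 in P (24695921 to 24696580) and 0.801 in D (24695821 to 24696730). Weaker peaks flanked it on both sides in the earlier lists, with scores of 0.341 and 0.383 in LZ and of 0.615 and 0.423 in P. Its rank stayed near the middle of all genes, at 50.9, 53.3 and 43.8.

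In all, the 10 genes had 22 promoter peaks in LZ, 22 in P and 16 in D. With lists of equal length the numbers were 17, 16 and 16. More than 1 promoter peak was called for 7, 6 and 5 of them in this order, beside 76.3%, 78.3% and 68.7% of all genes with a promoter peak. The strongest peak had a median width of 740 bp in LZ, 715 bp in P and 685 bp in D, and over all called genes these medians were 580, 610 and 570 bp. A TSS of another gene lay under 1000 bp from a TSS for 4 of the 10 genes, against 26.4% of all protein-coding genes. Near the 1000 bp limit, the most distant peaks counted were those of Acrv1 in P (717 bp, score 0.283) and Acr in LZ (696 bp, score 0.298). The nearest peaks not counted were those of Acrv1 in LZ (1037 bp, score 0.412), Acr in LZ (1078 bp, score 0.31) and Acr in P (1128 bp, score 0.324).

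The promoter sequences differed widely in CpG content although all were called. RefSeq promoter windows of 300 bases on GRCm38.p6, from 250 bases before the RefSeq start to 50 after it, were found for 9 of the 10 genes, all but Acr. The number of CpG dinucleotides in the window was 0 for Spam1 and 1 for Acrv1, and the highest was 26 for Zpbp2. The median of the 9 genes was 8, against 7 over the windows of 27025 genes, and the median GC content was 50.7% against 52.7%. Spam1 and Zpbp2 therefore stood at the ends of this range, with the 2 highest ranks of the 10 genes in LZ.

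The stretches before the start of 4 genes are shown, because they cover that range of CpG content, include 1 of the starts with a noncoding partner and hold the longest motif matches. Every base of each stretch lay under a promoter peak in all 3 substages. Sequences are from RefSeq, GRCm38.p6, written 5′ to 3′ on the plus strand, which is the strand of all 4 genes, and each ends 1 base before the annotated start. Capitals mark matches on either strand to AACNG (MYB core), CAGTTG (a MYB hexamer that contains the core), TGACG (core of the cyclic AMP response element, CRE), TGACGTCA (the full CRE, which contains that core on both strands) and GGGCGG (GC box).
Spam1, chr6:24790938-24791187: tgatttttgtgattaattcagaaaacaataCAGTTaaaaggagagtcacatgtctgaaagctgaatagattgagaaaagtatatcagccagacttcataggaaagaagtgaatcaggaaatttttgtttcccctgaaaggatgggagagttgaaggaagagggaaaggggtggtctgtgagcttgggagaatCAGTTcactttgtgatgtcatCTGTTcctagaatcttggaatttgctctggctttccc
Acrv1, chr9:36692970-36693219: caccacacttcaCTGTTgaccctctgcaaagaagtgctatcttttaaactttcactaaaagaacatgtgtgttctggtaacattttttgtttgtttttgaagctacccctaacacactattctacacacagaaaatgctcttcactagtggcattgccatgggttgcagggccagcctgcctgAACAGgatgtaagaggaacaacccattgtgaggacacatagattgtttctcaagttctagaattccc
Zpbp2, chr11:98550847-98551096: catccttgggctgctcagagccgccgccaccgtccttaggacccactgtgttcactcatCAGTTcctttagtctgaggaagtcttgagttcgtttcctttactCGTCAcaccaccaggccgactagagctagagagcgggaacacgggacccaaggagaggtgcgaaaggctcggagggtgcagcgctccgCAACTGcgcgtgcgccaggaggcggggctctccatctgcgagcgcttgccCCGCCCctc
Izumo1, chr7:45621561-45621810: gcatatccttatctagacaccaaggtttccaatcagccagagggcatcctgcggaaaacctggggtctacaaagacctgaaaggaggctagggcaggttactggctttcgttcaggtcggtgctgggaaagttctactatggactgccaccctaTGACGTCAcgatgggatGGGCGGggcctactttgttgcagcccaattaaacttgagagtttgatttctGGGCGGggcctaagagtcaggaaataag

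Motifs were searched on both strands of the 300-base windows of the 9 genes, and of all 27025 genes for the background. The MYB core AACNG was in 7 of 9 windows, all but Spaca3 and Izumo1, and in 80.4% of all windows. The longer CAGTTG was in 1 of 9, Zpbp2, where the match begins 59 bases before the start, and in 13.6% of all. The full CRE TGACGTCA was in 1 of 9, Izumo1, beginning 96 bases before the start, and in 1.88% of all. The CRE core TGACG was in 6 of 9 windows and in 21% of all. In Zpbp2, Izumo1, Acrbp, Spaca1 and Spaca3 it lay before the RefSeq start, and in Dpy19l2 after it. For Acrbp and Spaca1 the RefSeq start lies inside the GENCODE span of the gene, and so do these matches. The GC box GGGCGG was in 4 of 9 windows against 35.9%, and CCAAT was in 2 of 9, Zpbp and Izumo1, against 37.9%. Neither GTTGCNA, an RFX-type element (10.6% of all windows), nor TATAAA (14.2%) was found in any of the 9. A match is a description of letters, and with 9 windows no motif was tested.

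Gene-body peaks overlap the span of a gene and lie 1000 bp or more from each of its TSSs. They were called in 5 of the 10 genes in LZ, 4 in P and 2 in D, against 28.6%, 26.9% and 15.8% of all protein-coding genes. With lists of equal length, that is with as many of the highest-scoring peaks as D has, the numbers were 3, 2 and 2. With scores of at least 0.5 they were 3, 2 and 1, and with a limit of 500 bp in place of 1000 they were 5, 6 and 4. The order of the substages therefore depends on the setting. The share of all protein-coding genes with a gene-body peak was not worked out under the alternatives, so these numbers have no background. There were 22 such peaks over the 3 lists, and 13 of them were in Dpy19l2. Acrbp, Spam1, Spaca3, Zpbp2 and Spaca1 had none in any list.

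Within Dpy19l2, 9 of the 13 gene-body peaks lay under 1000 bp from the TSS of Cypt4, a gene of the cysteine-rich perinuclear theca family that lies in an intron of Dpy19l2 on the opposite strand, from 24625196 to 24625824. The peak over the Cypt4 start had a score of 1.067 in LZ (24624811 to 24625500), 1.224 in P (24624901 to 24625340) and 1.188 in D (24624931 to 24625510). In P and D these scores were above those at the Dpy19l2 start. The rank of Cypt4 was 43.8, 77.8 and 92.9, while that of its host was 50.9, 53.3 and 43.8. Intron peaks away from both starts were weak. One lay 21.8 kb from the Dpy19l2 TSS in LZ (score 0.38) and 21.7 kb from it in P (score 0.394), and another lay 9.73 kb away in LZ only (score 0.426). The remaining one adjoined the Cypt4 peaks in LZ (24626601 to 24627120, score 0.428).

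Zpbp had an intron peak about 9.4 kb from its TSS, with a score of 1.088 in LZ (11452641 to 11453040) and 0.548 in P (11452641 to 11453000). It was not called in D. In LZ its score was above that of every promoter peak of Zpbp in the same list. A second intron peak, 123 kb from the TSS, was called in P only, with a score of 0.348.

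In Izumo1 a peak crossed the 3′ end of the annotated gene in all 3 lists, with a score of 0.679 in LZ (45628781 to 45629370), 0.432 in P (45628711 to 45629190) and 0.405 in D (45628611 to 45629090). Its centre lay beyond the end of Izumo1 and inside the overlapping gene Rasip1, for which no promoter peak was called. In Acr the gene-body peaks had their centres in an exon and scored 0.31 in LZ and 0.324 in P. Acrv1 had 1 in LZ, also centred in an exon, with a score of 0.412.

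**Figure D3:**
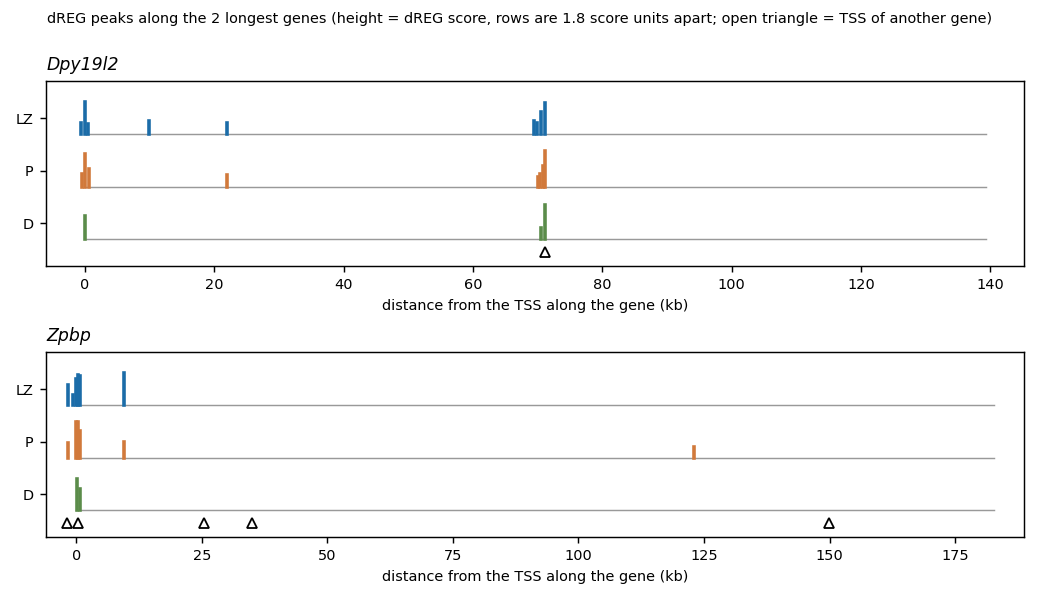
dREG peaks along Dpy19l2 and Zpbp, the longest of the 10 genes. The x axis is the distance from the TSS in kb, each row is a substage (LZ, leptonema/zygonema; P, pachynema; D, diplonema), the height of a line is the dREG score of a peak, and open triangles mark TSSs of other genes. The peaks near 71 kb in Dpy19l2 lie at the start of Cypt4 in all 3 rows, and the Zpbp peak near 9.4 kb is in the upper rows only.

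Other genes of the acrosome and of fertilization were taken from 3 lists of 47 genes in all. A promoter peak was called for 45 of them in LZ, 45 in P and 42 in D (95.7%, 95.7% and 89.4%), beside the background of 60.2%, 60.5% and 51.6%. All 45 that were ever called were first called in LZ, 42 were called in all 3 substages, and 40 of 47 had a TSS inside a peak in every substage. First calls in P or D were rare over all protein-coding genes too, at 3.53% and 0.433% of them, so the first call in LZ is not particular to these lists.

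Of 11 gamete fusion and binding factors, 9 were called in every substage. They include the fusion factors Spaca6 (strongest promoter peak at a score of 1.153 in LZ, 0.896 in P and 0.667 in D), Llcfc1 (1.329, 1.303 and 1.343) and 4930451I11Rik, which encodes FIMP (1.243, 1.082 and 0.706). Tmem95 was the weakest of them in LZ (0.493, 0.423 and 0.52), and none of its TSSs was inside a peak in all 3 lists. Of the same family as Izumo1, Izumo2 had scores of 1.308, 1.251 and 1.027, Izumo3 of 1.276, 1.041 and 0.388, and Izumo4 of 0.781, 0.828 and 0.767. The rank of Izumo4 was 15.9 in LZ and 40.1 in D, the other way from Izumo3. The partners Dcst1 and Dcst2 differed in their calls. Dcst1 had scores of 1.375, 1.027 and 0.432, and Dcst2 had no promoter peak in any list, the nearest peak lying 2.48 kb away in P. Over the lists, 6 gene-body peaks were called in Dcst2. Crisp1, known as an epididymal protein that coats sperm, was the other gene without a call, with its nearest peak 75.4 kb away in LZ.

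Of 22 other acrosomal proteins, 22 were called in LZ and in P and 19 in D. Those not called in D were Lyzl4 (0.49 in LZ and 0.542 in P), Cylc1 (0.624 and 0.786) and Actl7a (0.851 and 0.431). The nearest peak in D lay 1673 bp from a TSS for Actl7a, with a score of 0.725, so its missing call depends on the 1000 bp limit, and 48.2 kb away for Lyzl4 and 352 kb away for Cylc1. Of 14 genes of acrosome vesicle formation and anchoring, all 14 were called in every list. Among them are Gopc, a Golgi-associated protein (1.245, 1.236 and 0.926), Pick1, its partner in vesicle transport (1.34, 1.403 and 1.185), and Sun5, a protein of the sperm head-tail junction (1.5, 1.318 and 1.117).

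**Figure D4:**
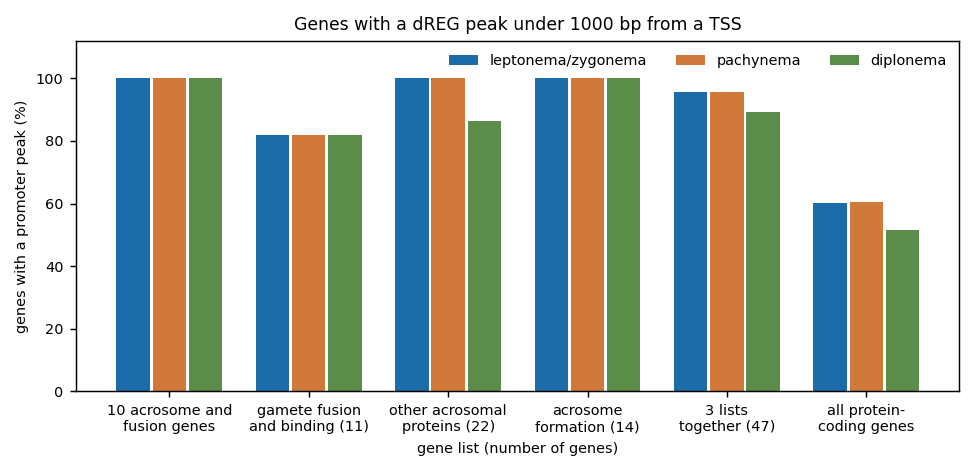
Share of genes with a dREG peak under 1000 bp from a TSS, in percent, for the 10 genes, the 3 lists of other genes and all protein-coding genes. Bars stand for the substages and have no error because each substage is 1 pooled list. The 10 genes are at 100% in each substage and all protein-coding genes at 60.2%, 60.5% and 51.6%.

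Like the 10 genes, the listed genes moved both ways in rank. Of the 42 called in all 3 substages, 23 (54.8%) had a lower rank in D than in LZ, against 47.8% of all genes, and their median rank was 72.3 in LZ, 40.9 in P and 48.4 in D. Among the lower ones, Izumo3 went from 85.4 to 6.92 and Dcst1 from 97.3 to 10.3. Among the higher ones, Spink2, an acrosin inhibitor, went from 9.92 to 94.1, and Actl9, an actin-like protein, from 6.7 to 86.6. Crisp2 was high in all 3 (87.6, 93.2 and 98.4).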

How the data were processed

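leChRO-seq libraries of 3 prophase I substages, 4 each, were analysed as the peak lists deposited for the merged libraries. The authors removed duplicates with PRINSEQ lite, trimmed with cutadapt, mapped with BWA to mm10 and an rDNA unit, and ran dREG with default settings; its version is not given in the sources used here. Each deposited peak has a dREG score, which is not scaled between substages, and a p-value under 0.05, and whether the deposited p-value is adjusted is not stated. Peaks were used as deposited, and coordinates are 1-based.

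TSSs were those of all GENCODE M21 transcripts, and overlaps needed 1 bp. Python 3.11.15 and matplotlib 3.10.9 were used. The promoter, gene-body and motif rules were tested on simulated data. Promoters were the first RefSeq window listed per gene. The text names every member, other genes whose start or span lies at a peak of a member, and genes of the 3 lists. It also names cell-type markers and the hyaluronidase genes near Spam1. Members, lists and rules were chosen with earlier results of these data known. Alternatives were other TSS distances, TSS sets, peak filters and list lengths. Libraries were merged before calling, so no test was made, and the library normalization factors that the study tabulates were not used here to derive depth. ATAC-seq and RNA-seq were not analysed here.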

Additional observations from a re-analysis of the deposited data

How the results depend on the processing

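Under each of 9 alternatives all 10 genes kept a promoter peak in all 3 substages and a first call in LZ. The alternatives were TSS distances of 500 and 2000 bp, distance from the peak centre, protein_coding transcripts only, RefSeq TSSs, scores of at least 0.5, p-values of at most 0.01, lists of equal length by score, and only peaks at least as near to the gene's own TSS as to another gene's. The last of these keeps a peak that covers the starts of both genes. It therefore could not remove the calls over the shared starts of Acrbp, Spaca3 and Acrv1, or that of Zpbp in D, and does not show which gene was initiated there. The other 47 genes had between 43 and 46 calls in LZ, 43 and 46 in P, and 38 and 44 in D. The number of promoter peaks per gene and substage changed by over 1.5 times in 24 of 270 recomputed values, none of them to 0. Gene-body calls depended more on the setting. With scores of at least 0.5 they were in 3, 2 and 1 of the 10 genes in LZ, P and D, with lists of equal length in 3 and 2 in the first pair, with 2000 bp in 3 in LZ, and with 500 bp in 4 in D. The share of all protein-coding genes with a promoter peak, in the same order of substages, was 59%, 59.5% and 50.7% with 500 bp, 61.9%, 62.1% and 52.8% with 2000 bp, 58.7%, 59.2% and 50.4% with protein_coding transcripts only, 54.2%, 53.8% and 42.5% with scores of at least 0.5, and 58.4%, 58.6% and 49.3% with p-values of at most 0.01. It was 52.7% in LZ and 53.2% in P with lists of equal length, 61.3% in P with RefSeq TSSs and 50.9% in D with the nearest-gene rule. Stricter filters and shorter distances remove peaks by construction, and apart from that the cause was not tested. No paired analysis was possible because the libraries were merged before peaks were called, which also means that none could be left out in turn.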

Other observations

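Spam1 belongs to a cluster of hyaluronidase genes on chromosome 6, and its neighbours were looked up after the values of Spam1 had been seen. Hyal5 (24857997 to 24891958), which also encodes a sperm hyaluronidase, had its strongest promoter peak at a score of 1.23 in LZ, 1.04 in P and 0.445 in D, with ranks of 76.7, 40.8 and 11.3. Hyal6 (24733245 to 24745452) had scores of 0.579, 1.002 and 1.014 and ranks of 6.31, 36 and 71.5, so that it moved the other way from Spam1 and Hyal5 in the same lists. Hyal4 (24748329 to 24767662), between Hyal6 and Spam1, had no promoter peak in any list.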
